A study of Homo sapiens with 18 samples.

Results

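The cytosolic ribosomal protein genes encode the protein parts of the large and the small subunit of the ribosome that translates nuclear-encoded mRNA. They were chosen by symbol, without use of any measured value, as protein-coding genes whose symbol is RPL or RPS followed by a number, with or without the ending A, X, L or L1, together with RPLP0, RPLP1, RPLP2 and RPSA. The rule found 84 of the 25296 genes in the deposited table of counts, namely 46 proteins of the large subunit, 31 of the small subunit and 7 paralogues (RPS27L, RPL22L1, RPL26L1, RPL39L, RPL7L1, RPL10L and RPL3L). RPL3L, a paralogue of RPL3 known from striated muscle, had between 0 and 11 counts in the libraries and was not tested, which left 83 genes among 18226 tested.

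The series profiled total RNA of U2OS, an established human osteosarcoma line, in 18 libraries. Of its 3 derived lines, EV held only the vector MigR1, WT overexpressed wild-type DNMT3A, and MUT overexpressed a mutant DNMT3A. Each was sampled untreated and 24 h into treatment with 10 µM cytarabine, a nucleoside analogue that blocks DNA synthesis. DNMT3A is a DNA methyltransferase. The 6 groups are therefore untreated EV, treated EV, untreated WT, treated WT, untreated MUT and treated MUT, each with 3 libraries that the labels describe as biological triplicates. All 6 groups share the U2OS background, and the introduced genes come on top of the cells' own DNMT3A. For the mutation, R882C stands in the series text but R882H in the sample labels, and it is referred to only as mutant. The series text speaks of a vehicle control, while the sample labels say untreated. How many clones a line came from is not given in the sources used here.

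Ribosomal protein genes belong to the most strongly expressed genes of dividing cells, and most of their products are needed in equal numbers in each ribosome. Their mRNAs typically begin with a cytosine followed by a run of pyrimidines, the 5′ terminal oligopyrimidine (TOP) motif, through which mTOR and the RNA-binding protein LARP1 adjust their translation and stability. When ribosome assembly is disturbed, free RPL5 and RPL11 bind MDM2 together with the 5S ribosomal RNA, which stabilises p53. RPS27L, a close relative of RPS27, is a known p53 target gene.

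The libraries held 15.4 to 21.9 M estimated counts. DNMT3A, the gene the lines differ in, ran from 26.2 to 27.5 counts per M (CPM) in untreated EV, from 129 to 139 CPM in untreated WT and from 254 to 615 CPM in untreated MUT. The lowest of those untreated MUT values, 254 CPM, was that of replicate 3. Of the osteoblast and mesenchymal markers checked, VIM lay between 1073 and 2241 CPM and RUNX2 between 26.1 and 57.8 CPM, whereas COL1A2 did not exceed 8.76 CPM and TWIST1 was not among the genes of the table. The leukocyte marker PTPRC did not exceed 1.41 CPM, and CDKN2A, which U2OS is known not to express, had a median of 0. Untreated MUT replicate 3 stood apart in the ribosomal protein genes. The main counts and medians over the set that rest on it are therefore given with and without it, as are single genes whose call it decides. Counts of genes over the 3 lines together are given with all libraries only.

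The start of the mRNA was examined first, because the TOP motif is the feature these genes are best known to share. RefSeq promoter sequences (GRCh38.p14) were at hand for 67 of the 84 genes. A cytosine at the annotated start followed directly by at least 4 pyrimidines (C or T) was present in 43 of the 67 (64.2%), against 4.73% of 12504 other protein-coding genes of the table and 4.04% of all 27305 promoters in the RefSeq table. Such a run beginning within 5 bases of the start was present in 51 (76.1%), against 22.2% of the other protein-coding genes and 21.1% of all promoters. Only the strand that reads as the mRNA was searched. The following windows hold 10 bases before and 20 bases from the annotated start, with the run in capitals. The first 6 stand for core proteins that the results on cytarabine turn on, with and without a clear fall. The next 4 belong to paralogues, of which RPL22L1 has a run and the other 3 have none.

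RPLP1, chr15:69452808-69452837, plus strand: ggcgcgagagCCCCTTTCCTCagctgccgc
RPL24, chr3:101686699-101686728, minus strand: atgattctctCTTTCTTTTCgccatctttt
RPL21, chr13:27251548-27251577, plus strand: ccgcctctttCCTTTCggccggaaccgcca
RPS6, chr9:19380217-19380246, minus strand: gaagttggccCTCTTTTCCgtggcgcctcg
RPS19, chr19:41860245-41860274, plus strand: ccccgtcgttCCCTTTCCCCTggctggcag
RPS27, chr1:153990752-153990781, plus strand: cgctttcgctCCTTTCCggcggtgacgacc
RPL22L1, chr3:170870176-170870205, minus strand: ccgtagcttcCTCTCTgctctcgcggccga
RPS27L, chr15:63157458-63157487, minus strand: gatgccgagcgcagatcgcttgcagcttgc
RPL26L1, chr5:172958719-172958748, plus strand: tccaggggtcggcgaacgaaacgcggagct
RPL7L1, chr6:42879606-42879635, plus strand: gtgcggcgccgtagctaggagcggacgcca

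Among the 10 windows, the runs are 11 bases long in RPLP1 and RPS19, 10 in RPL24, 9 in RPS6, 7 in RPS27 and 6 in RPL21 and RPL22L1. The windows of RPS27L, RPL26L1 and RPL7L1 hold no run at the start, and neither did that of RPL10L. A window without a run says only that these letters are not at the annotated start. RPL39L was not among the genes with a sequence.

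The levels of the ribosomal protein genes were uneven. Per 1000 bases of transcript, the mean level over all 18 libraries, untreated and treated, was highest for RPLP1 (chromosome 15, 69452784 to 69456195), an acidic protein of the stalk that recruits elongation factors, at 6238 CPM per kb. The median was 681 CPM per kb, and the lowest was RPS28 at 3.87 CPM per kb. The deposited table also lists 305 pseudogenes named after 65 of these genes. For 10 genes the counts assigned to their pseudogenes exceeded their own, among them RPL9 (463% of its own counts), RPL21 (461%), RPS28 (390%), RPL13A (175%), RPL7 (146%) and RPS7 (122%). The levels of these genes are therefore uncertain, because reads may have been divided among near-identical copies. Such counts did not go with a low level throughout: RPL13A had 550.2 CPM per kb, whereas RPL39 had 34.4 CPM per kb with pseudogene counts of 2.09% of its own, and RPL36A had 13.5 CPM per kb with 6.72%. For 54 genes the pseudogene counts were under 5% of their own.

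Cytarabine lowered most ribosomal protein mRNAs in all 3 lines. In EV, 63 of the 83 genes fell and 2 rose, in WT 70 fell and 2 rose, and in MUT 77 fell and none rose (edgeR quasi-likelihood test, adjusted p under 0.05 over all genes). In EV, 22.9% of all tested genes were called lower and 26.1% higher. The shares were 22.7% lower and 26.3% higher in WT, and 25.9% lower and 30.4% higher in MUT. In EV, WT and MUT the median log2 fold changes of the 83 genes were -0.35, -0.45 and -0.64, which are falls by 21.4%, 27.0% and 35.7%, while the median over all tested genes was 0.05, 0.03 and 0.05. In MUT, 1 gene (RPS27L) was higher and 74 were lower without untreated MUT replicate 3, with a median of -0.53, where 27.4% of all genes tested in that fit were lower. Under upper-quartile scaling the counts in EV were 2 higher and 40 lower. CPM are shares of a library's counts, so a fall in them and a change in the RNA content of the cells cannot be told apart, nor can fewer cells of one kind and less RNA per cell.

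**Figure D1:**
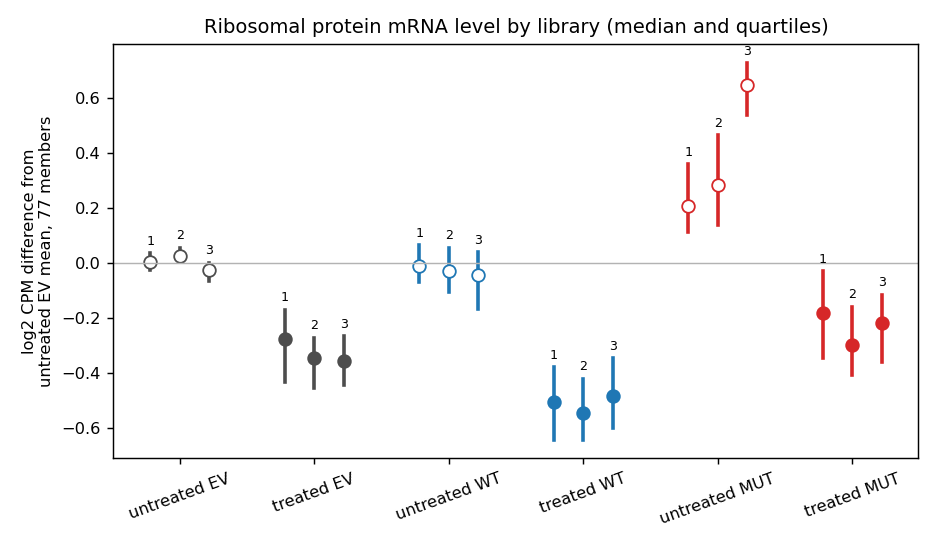
Level of the 77 ribosomal protein genes other than paralogues in each library, as log2 CPM minus the untreated EV mean (vertical axis), by group (horizontal axis). Circles are medians over genes, bars run from the lower to the upper quartile, numbers are replicates, and open circles are untreated. Treated libraries have medians from -0.55 to -0.18, and untreated MUT replicate 3 stands highest at 0.65.

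The plot of levels by library shows the fall as a shift of the whole set. Relative to the untreated EV mean, the median over the 77 genes other than paralogues was -0.28, -0.35 and -0.36 in the treated EV libraries, -0.51, -0.55 and -0.49 in treated WT, and -0.18, -0.30 and -0.22 in treated MUT. The untreated WT libraries lay close to those of EV, at -0.01, -0.03 and -0.05. The untreated MUT libraries lay at 0.21, 0.28 and 0.65. These medians of treated and untreated libraries did not overlap within any line, and the lowest treated libraries were those of WT.

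The share of all counts taken by the 84 genes was lower after treatment in every line. It was 5.24 ± 0.0890% (SD, n = 3) in untreated EV and 4.79 ± 0.233% in treated EV, 5.16 ± 0.0885% in untreated WT and 4.30 ± 0.0709% in treated WT, and 6.59 ± 0.784% in untreated MUT and 5.17 ± 0.172% in treated MUT. The 3 untreated MUT libraries had shares of 6.08%, 6.19% and 7.49%, the last in replicate 3, and all lay above the treated MUT mean. The summed CPM of the 77 genes fell from 54746 ± 1296 to 43733 ± 889 in EV, from 53054 ± 1033 to 38762 ± 595 in WT and from 73132 ± 11207 to 47630 ± 1861 in MUT (SD, n = 3 each). In untreated MUT it was 64260, 69409 and 85726 CPM in replicates 1, 2 and 3.

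The fall was spread over both subunits. Of the 46 large-subunit genes, 38 fell in EV, 42 in WT and 44 in MUT, with median log2 fold changes of -0.35, -0.49 and -0.66. Of the 31 small-subunit genes, 22 fell in EV, 26 in WT and 29 in MUT, with medians of -0.35, -0.42 and -0.61. Without untreated MUT replicate 3, 42 of the large-subunit and 28 of the small-subunit genes fell in MUT, with medians of -0.57 and -0.51. No gene of either subunit rose in any line. Over all 83 genes, 58 fell in all 3 lines, as did 16.4% of all tested genes, and none was called in opposite directions in different lines. For 52 of the 58, the treated and untreated libraries did not overlap in any line. Among all tested genes, 2997 fell in all 3 lines, and 2801 of these did so without overlap.

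**Figure D2:**
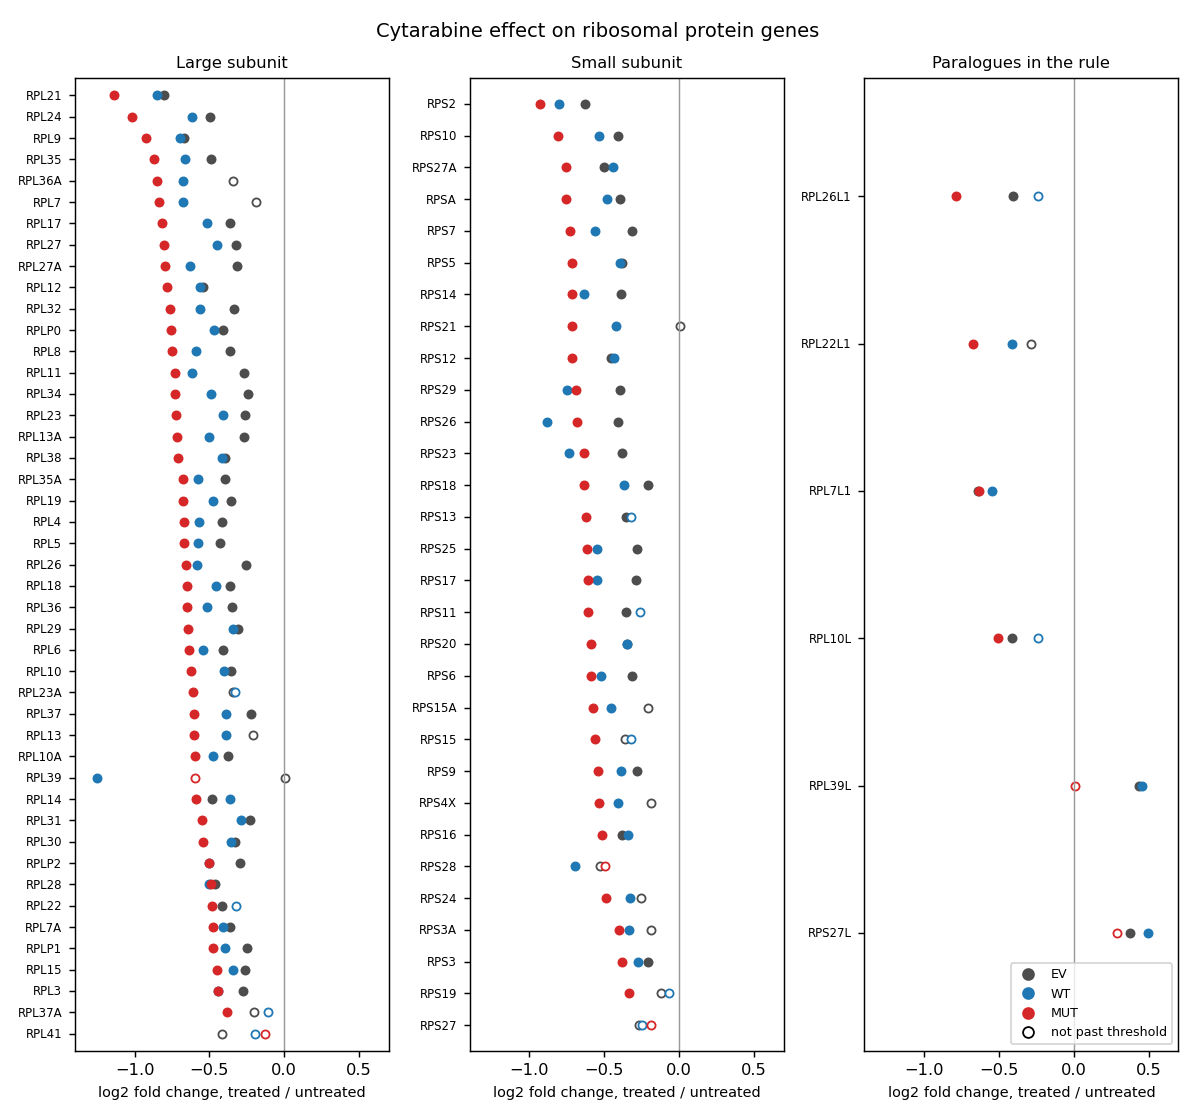
Log2 fold change of treated against untreated cells (horizontal axis) for 81 of the 83 tested genes (rows), in EV (grey), WT (blue) and MUT (red), split into 45 large-subunit genes, 30 small-subunit genes and 6 paralogues. Filled points passed an adjusted p of 0.05 and open points did not. RPL39L and RPS27L are the genes right of 0 among the filled points, in EV and WT.

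Among the small-subunit genes, RPS2 (chromosome 16, 1962052 to 1964861), a core protein near the mRNA entry channel, had the largest fall in EV and in MUT. In EV it went from 1736, 1696 and 1582 CPM to 1077, 1136 and 1024 CPM. In WT it went from 1786, 1711 and 1697 CPM to 973, 976 and 1035 CPM. In MUT it went from 1893, 2401 and 2520.4 CPM to 1256, 1168 and 1157 CPM. No treated library reached an untreated one of its line, and the log2 fold changes were -0.63 ± 0.08 (SE) in EV, -0.80 ± 0.08 in WT and -0.93 ± 0.08 in MUT, with edgeR adjusted p of 4.1e-06, 2.3e-07 and 2.3e-08. The counts of its pseudogenes were 84.9% of its own.

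RPS6, the classic substrate of S6 kinase, shifted less and with little scatter. Its log2 fold change was -0.31 ± 0.08 (SE) in EV, -0.52 ± 0.08 in WT and -0.59 ± 0.08 in MUT, from between 757.5 and 780.0 CPM in the untreated EV libraries to between 599 and 652 CPM in the treated ones. RPS14 fell by 0.39, 0.64 and 0.71 (log2) in the 3 lines, and RPS7 fell by 0.32, 0.56 and 0.73. RPS19, the protein most often mutated in Diamond-Blackfan anaemia, had small values: its log2 fold change was -0.12 in EV and -0.07 in WT, neither past the threshold, and -0.34 in MUT, with an edgeR adjusted p of 0.0217 and overlapping libraries. Its untreated MUT libraries had 1489, 1500.4 and 2367 CPM, with replicate 3 apart, and its treated MUT libraries 1414, 1324 and 1502 CPM. Without untreated MUT replicate 3 the MUT value was -0.11 with an edgeR adjusted p of 0.110, and over the alternatives it ran from -0.49 to -0.11 with adjusted p from 0.00150 to 0.137. The call was also lost without treated MUT replicate 1 or 2 and in a fit to the 2 groups alone.

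In the large subunit, RPL24 (chromosome 3, 101681091 to 101686783), whose window above holds a run of 10 pyrimidines, had the second largest fall in MUT after RPL21. There it went from 347, 417 and 413 CPM to 212, 182 and 186 CPM. In WT it went from 328, 332 and 326 CPM to 215, 209 and 219 CPM. In EV it went from 271, 292 and 274 CPM to 248, 168 and 179 CPM, where treated replicate 1 stayed near the untreated level. The log2 fold changes were -0.49 ± 0.11 (SE), -0.62 ± 0.11 and -1.02 ± 0.11 in EV, WT and MUT, and the edgeR adjusted p in MUT was 2.2e-07.

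RPL21 had the largest fall of the 83 genes in EV (-0.80 ± 0.17, SE) and in MUT (-1.14 ± 0.17), and RPL9 fell by 0.67, 0.70 and 0.92 in EV, WT and MUT. Both are among the genes with more pseudogene counts than counts of their own, and RPL21 had only 3.25 to 13.4 CPM. When the counts of each pseudogene were added to the gene it is named after, an alternative chosen after seeing the data, 63 genes were lower in EV, 71 in WT and 77 in MUT. Among the 53 tested genes with pseudogene counts under 5% of their own, 40 fell in EV, 43 in WT and 48 in MUT.

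In WT the largest fall was that of RPL39 (-1.25 ± 0.41, SE). RPL39 is a very small protein lining the exit tunnel, and its libraries scattered widely. It had 13.4, 14.2 and 9.16 CPM in untreated EV against 23.8, 6.74 and 6.16 CPM in treated EV, so that treated replicate 1 was the highest of the 6. RPL7, at 542, 561 and 507 CPM in untreated EV against 672, 374 and 369.8 CPM in treated EV, also had treated replicate 1 above all untreated EV libraries. Neither gene was called in EV. Without that library, 59 genes were lower and 2 higher in EV.

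The stalk and the p53-linked proteins fell with the rest. RPLP0, the anchor of the stalk, had log2 fold changes of -0.41, -0.47 and -0.76 for EV, WT and MUT, RPLP1 of -0.25, -0.40 and -0.47, and RPLP2 of -0.29, -0.50 and -0.50, all past the threshold. RPL5 went from 997, 1011 and 990.3 CPM to 764, 726 and 735 CPM in EV, from 960, 969 and 951 CPM to 652, 628 and 652 CPM in WT, and from 1229, 1304 and 1600 CPM to 904, 850.1 and 840.4 CPM in MUT. Its groups did not overlap in any line, and the log2 fold changes were -0.43 ± 0.07 (SE), -0.58 ± 0.07 and -0.67 ± 0.07. RPL11 fell by 0.27, 0.62 and 0.73, although in EV treated replicate 1 (737 CPM) lay above untreated replicate 3 (664 CPM). RPL23, which also binds MDM2, fell by 0.26, 0.41 and 0.72. Over the alternatives, the adjusted p in EV reached 0.106 for RPLP1, 0.142 for RPLP2, 0.221 for RPL11 and 0.151 for RPL23. It stayed at or under 0.0442 for RPLP0 and 7.5e-04 for RPL5.

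Only 2 of the 83 genes, RPL41 and RPS27, were called in no line. RPL41, the smallest protein of the ribosome, had log2 fold changes of -0.42, -0.20 and -0.13 in EV, WT and MUT, with untreated MUT libraries at 271, 167 and 444 CPM. RPS27 had log2 fold changes of -0.27, -0.25 and -0.19, all with an SE of 0.13. Both windows at the start of their mRNAs hold a pyrimidine run.

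The paralogues divided into 2 that rose and 4 that fell. RPS27L (chromosome 15, 63125872 to 63158022) had 294, 317 and 319.7 CPM in untreated EV and 405, 358 and 442 CPM in treated EV. It had 329.5, 329 and 300.1 CPM in untreated WT and 462, 445 and 446 CPM in treated WT. The groups did not overlap in either line, and the log2 fold changes were 0.37 ± 0.13 (SE, edgeR adjusted p 0.0206) and 0.50 ± 0.13 (adjusted p 0.00315). In MUT, RPS27L had 327, 238 and 417 CPM untreated and 387, 397 and 417 CPM treated. Those groups overlapped through untreated replicate 3, and the log2 fold change of 0.29 ± 0.13 was not past the threshold (adjusted p 0.0605). Over the alternatives, the MUT value ran from 0.06 to 0.47 and its adjusted p from 4.6e-04 to 0.597, and without untreated MUT replicate 3 it was called higher. In EV the adjusted p ran from 0.00148 to 0.0978, and in WT it stayed at or under 0.0193. The differences in the effect between lines were -0.08 ± 0.18 (SE) between MUT and EV and -0.21 ± 0.18 between MUT and WT, with edgeR adjusted p of 0.862 and 0.631.

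The ratio of RPS27L to its partner RPS27 in CPM, not corrected for length, was higher after treatment in every line. It went from 3.30 ± 0.0568 (SD, n = 3) to 5.18 ± 0.534 in EV, from 3.20 ± 0.128 to 5.39 ± 0.407 in WT and from 3.31 ± 0.201 to 4.64 ± 0.151 in MUT. The lowest treated ratio, 4.47 in MUT, lay above the highest untreated ratio, 3.50, also in MUT. The untreated MUT libraries, which scattered in both genes, lay at 3.10 to 3.50 in this ratio.

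**Figure D3:**
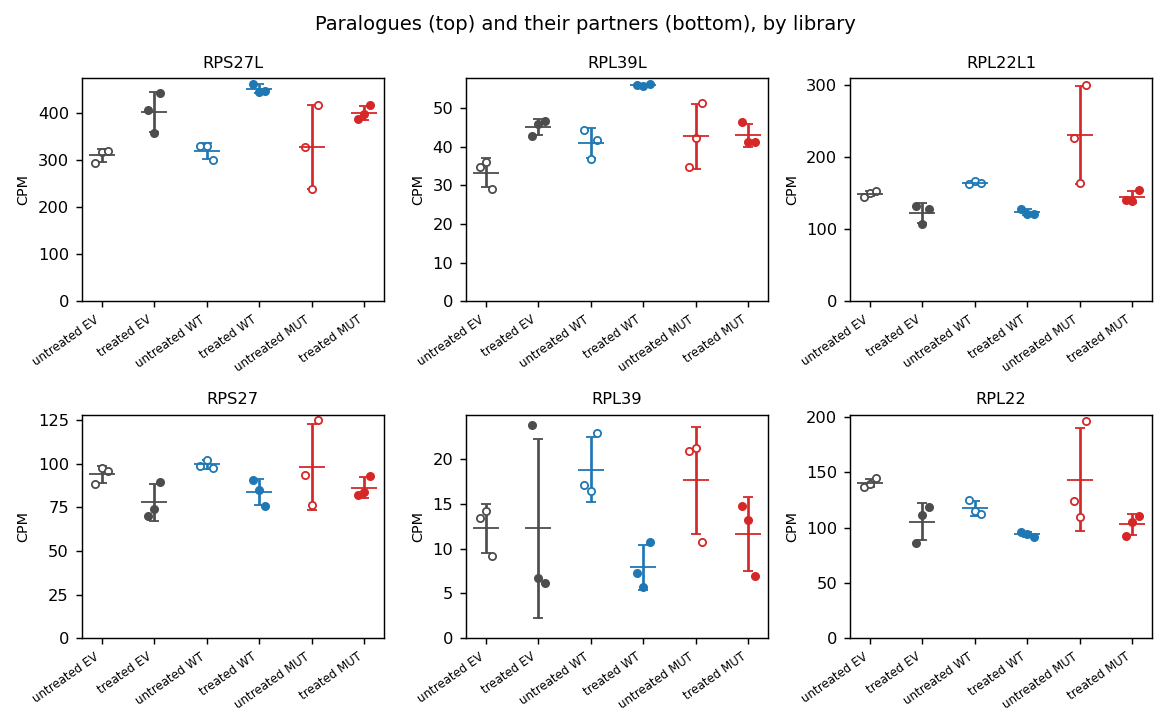
CPM of RPS27L, RPL39L and RPL22L1 (upper row) and of RPS27, RPL39 and RPL22 (lower row) in the 18 libraries by group. Points are libraries (open untreated, filled treated), short lines the mean and bars ± 1 SD (n = 3). RPS27L and RPL39L lie higher after treatment in EV and WT without overlap, and the untreated MUT libraries of RPS27L run from 238 to 417 CPM.

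RPL39L (chromosome 3, 187120948 to 187180909), a paralogue of RPL39 known from testis, had 34.6, 36.0 and 29.0 CPM in untreated EV and 42.8, 45.7 and 46.6 CPM in treated EV. In WT it had 44.2, 36.7 and 41.6 CPM untreated and 55.9, 55.7 and 56.2 CPM treated. In MUT it had 34.6, 42.1 and 51.3 CPM untreated and 46.3, 41.2 and 41.2 CPM treated, which overlapped. The log2 fold changes were 0.44 ± 0.11 (SE) in EV, 0.45 ± 0.11 in WT and 0.01 ± 0.11 in MUT, with edgeR adjusted p of 0.00319, 0.00203 and 0.951. The MUT value changed sign under other scalings of the libraries, within -0.13 to 0.13. The difference of MUT from the other lines was -0.43 ± 0.16 against EV and -0.44 ± 0.16 against WT, and neither passed the threshold (edgeR adjusted p 0.204 and 0.169). Over the alternatives these p ran from 0.0333 to 0.424 and from 0.0249 to 0.295.

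The other paralogues fell with the subunit genes. RPL7L1, a nucleolar relative of RPL7, fell by 0.64, 0.54 and 0.63 in EV, WT and MUT, all past the threshold. RPL22L1 fell by 0.41 in WT and 0.67 in MUT, with -0.29 in EV not called. RPL26L1 and RPL10L fell in EV (by 0.40 and 0.41) and in MUT (by 0.79 and 0.51), with -0.24 for each in WT not called. The ratio of RPL22L1 to RPL22 was 1.06 ± 0.0097 (SD, n = 3) in untreated EV, 1.40 ± 0.0925 in untreated WT and 1.61 ± 0.185 in untreated MUT, without overlap of EV with the other lines, and 1.19 ± 0.301, 1.31 ± 0.0277 and 1.40 ± 0.0998 after treatment.

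The fall was of similar size in genes with and without a pyrimidine run at the annotated start. For EV, WT and MUT, the 43 genes with a run had median log2 fold changes of -0.34, -0.45 and -0.64, and the 24 genes with a sequence and no run had -0.36, -0.48 and -0.65. Called lower were 33, 37 and 40 of the 43, and 19, 20 and 22 of the 24. Without untreated MUT replicate 3, 37 of the 43 and 22 of the 24 were lower in MUT, with medians of -0.50 and -0.55.

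Other genes of the ribosome pathway also fell, and the assembly factors fell further than the ribosomal proteins. Of 56 tested ribosome biogenesis genes, 55 fell in EV, 54 in WT and 56 in MUT, with medians of -0.89, -0.78 and -1.02. RRS1, which helps to load the 5S ribosomal RNA, fell by 1.46 in EV and 1.21 in WT, and MRTO4, an assembly factor of the stalk, fell by 1.65 in MUT. Of 28 tested subunits and factors of RNA polymerases I and III, 20, 18 and 23 fell, and POLR3GL rose by 0.68 in EV and 1.01 in WT. MYC, a regulator of ribosome production, fell by 1.10, 1.13 and 1.01.

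Of 26 tested translation factors and other genes known for TOP mRNAs, 21, 23 and 25 fell, with medians of -0.45, -0.48 and -0.58, close to those of the ribosomal proteins. NPM1 fell most, by 1.23, 1.22 and 1.46, whereas TPT1, the translationally controlled tumour protein, had log2 fold changes of 0.13 and -0.04 in EV and WT, not called, and -0.19 in MUT, called lower. FAU and RPL36AL, ribosomal proteins outside the symbol rule, fell in each line. Of 10 tested host genes of small nucleolar RNAs, 9, 10 and 10 fell, among them GAS5 by 0.63, 1.03 and 0.73. Of 78 tested mitochondrial ribosomal proteins, 65, 54 and 74 fell, with medians of -0.40, -0.36 and -0.65. Without untreated MUT replicate 3 the falls in MUT numbered 55 of the ribosome biogenesis genes, 23 of the TOP genes, 8 of the host genes and 70 of the mitochondrial ribosomal proteins.

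Among 24 tested genes of mTOR signalling and TOP regulation, 13, 11 and 13 fell and 2, 3 and 5 rose. LARP1 fell by 0.73, 0.67 and 0.60, whereas SESN3 and SESN1 rose, SESN1 by 0.41, 0.78 and 0.58. AKT1S1 of the same list had log2 fold changes of -0.78 in EV and -0.997 in MUT, both called lower. Of 30 tested p53 targets, 19, 23 and 23 rose and none fell, with GDF15 up by 3.03, 4.21 and 3.89 and CDKN1A by 1.14, 1.34 and 1.39. In the list around the 5S particle and MDM2, 8, 8 and 9 of 12 tested genes fell and MDM2 alone rose, by 0.43, 0.81 and 0.78.

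Falls were also common among other abundant genes. Of 2344 other protein-coding genes with a mean of at least 100 CPM, 55.2% were called lower in EV, 52.0% in WT and 58.1% in MUT, with medians of -0.25, -0.23 and -0.29. Of the 452 among them with a transcript length of at most 1500 bases, which is closer to the ribosomal protein genes, 54.9%, 53.5% and 74.1% were called lower, with medians of -0.27, -0.25 and -0.45. Without untreated MUT replicate 3, 63.1% of the 2344 and 69.5% of the 452 were lower in MUT, with medians of -0.30 and -0.38. The part of abundance and transcript length in the fall of the ribosomal protein genes was not tested.

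**Figure D4:**
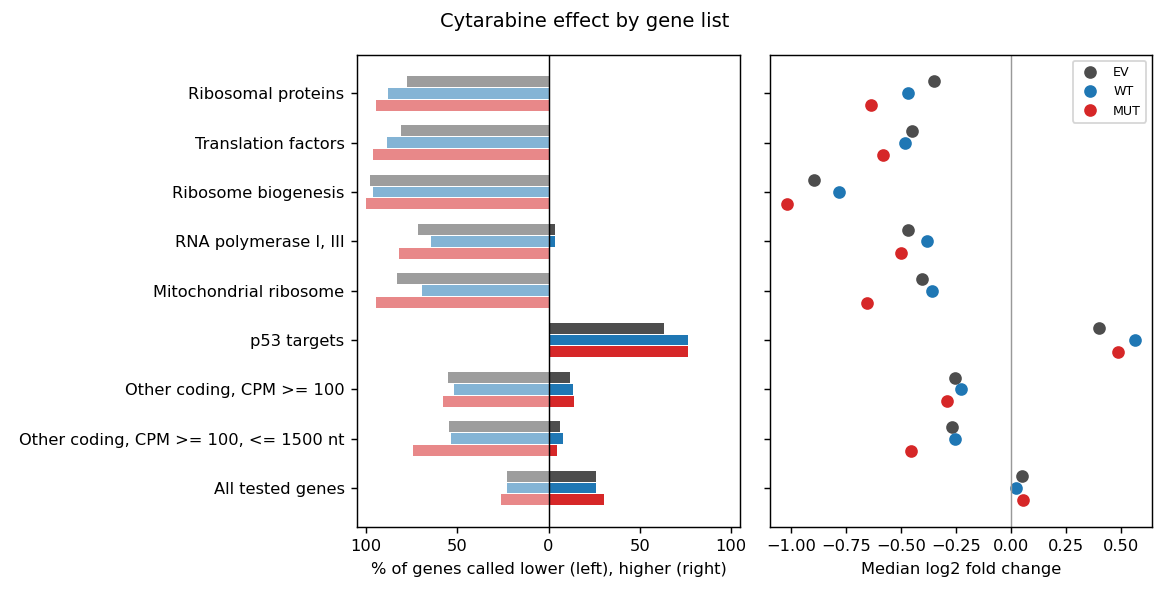
Cytarabine effect by gene list in EV (grey), WT (blue) and MUT (red). The left panel gives the percentage of tested genes called lower (bars to the left) and higher (bars to the right), and the right panel the median log2 fold change. Ribosome biogenesis has the lowest medians, from -1.02 to -0.78, and p53 targets the highest, from 0.40 to 0.57.

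RPS27L was closest over the 18 libraries to NUPR1 (Pearson r of log2 CPM 0.949), ACADM (0.945), LGMN (0.938), B4GALT4 (0.930) and FAM174A (0.926). The points are the same 18 libraries for each gene and share their group structure, so these values are a description.

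The fall was numerically larger in MUT, but no single gene passed the test of that difference. The log2 fold change was lowest in MUT for 71 of the 83 genes, and 55 followed the order MUT below WT below EV. Of all tested genes, 36.7% and 17.5% did so. Both counts include untreated MUT replicate 3. The median difference in the effect was -0.29 between MUT and EV, -0.18 between MUT and WT and -0.13 between WT and EV. With edgeR's quasi-likelihood test 0 genes passed an adjusted p of 0.05 in any of these 3 differences, where 0.214%, 1.00% and 0.285% of all tested genes did. At an unadjusted p under 0.05 there were 42, 10 and 8 of the 83 genes, where 15.8%, 15.4% and 9.96% of all tested genes had such a p, so that the last 2 counts lie near or below the share of all genes. DESeq2 called 16, 1 and 0, all lower, where it called 2.66%, 4.62% and 0.298% of all its tested genes lower. RPL13A had a difference of -0.45 ± 0.12 (SE) between MUT and EV, with an edgeR adjusted p of 0.114, and RPL26 one of -0.40 ± 0.11, with 0.112. These differences contain the untreated MUT libraries. Without untreated MUT replicate 1, edgeR called 25 genes lower in the first difference and 6 in the second, where 2.09% and 2.67% of all tested genes were lower. Without replicate 2 it called 3 and 2. The share of all tested genes in that fit is not given here, so these 2 small counts cannot be set against it. Without replicate 3 it called none, and the medians were -0.18 and -0.05.

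In untreated cells the MUT line had more ribosomal protein mRNA than both other lines. Against EV, 55 genes were higher and none lower, with a median log2 difference of 0.41, where 9.88% of all tested genes were called higher and the median over all was 0.00. Against WT, 61 were higher and none lower, with a median of 0.44, where 11.7% of all tested genes were higher. Without untreated MUT replicate 3 the counts were 49 higher and 2 lower (RPL7L1 and RPLP2) against EV, with a median of 0.27, and 56 higher and 0 lower against WT, with a median of 0.29. In that fit 11.3% and 13.2% of all tested genes were higher than in EV and in WT. Called higher both with and without that library were 49 genes against EV and 55 against WT. In a fit to the 2 compared groups alone, 21 genes were higher than in EV and 26 higher than in WT, where 2.59% and 3.97% of all tested genes were. The 2 comparisons share the untreated MUT libraries.

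**Figure D5:**
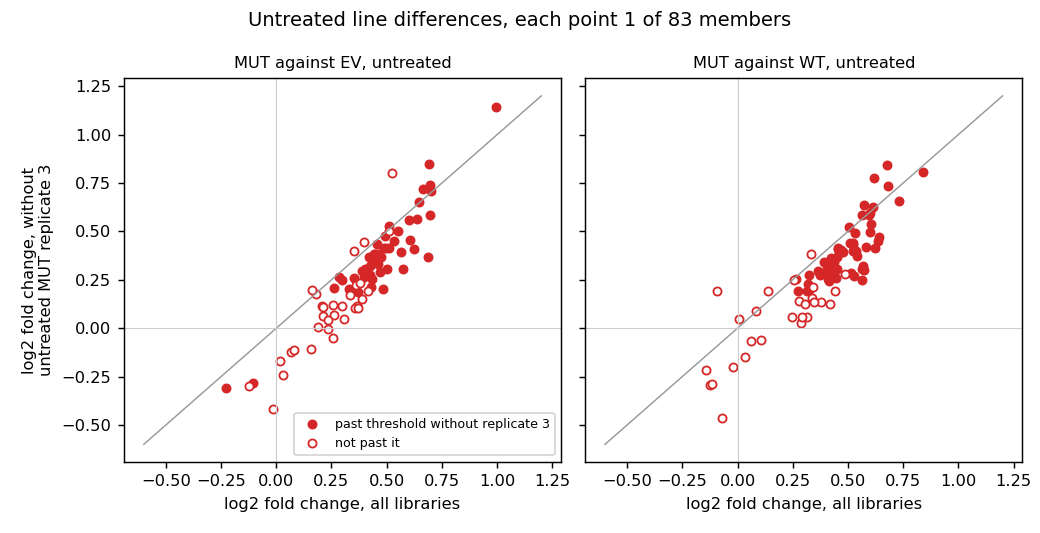
Log2 fold change of untreated MUT against untreated EV (left) and untreated WT (right) for the 83 tested genes, with all libraries (horizontal axis) and without untreated MUT replicate 3 (vertical axis). Filled points passed an adjusted p of 0.05 without that library, and the line marks equal values. Most points lie below the line, and medians are 0.41 and 0.44 with all libraries against 0.27 and 0.29.

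Replicate 3 was the highest untreated MUT library for 65 of the 77 genes other than paralogues, and for 39.3% of all tested genes. Replicates 1 and 2 were both above all untreated EV libraries for 59 of the 77, and for 22.0% of all tested genes. RPS23, a protein of the decoding centre, was even across the replicates, with 1377, 1344 and 1398 CPM in untreated MUT, 895, 877 and 766 CPM in untreated EV and 974, 961 and 969 CPM in untreated WT. Its log2 difference was 0.70 ± 0.10 (SE) from EV and 0.50 ± 0.10 from WT, with edgeR adjusted p of 8.8e-05 and 0.00120. RPL11 had 1080.4, 1322 and 1149.7 CPM in untreated MUT against 664 to 791 CPM in untreated EV and 715 to 756 CPM in untreated WT, a difference of 0.69 ± 0.11 and 0.68 ± 0.11.

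RPL13A, which also has a role in translational silencing in interferon-treated cells, was the gene with the largest difference from WT. It had 909.5, 1157 and 1176 CPM in untreated MUT, 613, 606 and 594 CPM in untreated WT and 728, 709 and 702 CPM in untreated EV. The groups did not overlap, and the log2 difference was 0.84 ± 0.09 (SE) from WT and 0.60 ± 0.09 from EV, with edgeR adjusted p of 2.3e-06 and 1.2e-04. RPL7 was higher by 0.69 and 0.68, RPS7 by 0.70 and 0.60, and RPL31 by 0.50 and 0.73. RPL13A, RPL7 and RPS7 have more pseudogene counts than their own.

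Some genes were not called in the untreated MUT line. RPS27L differed by 0.08 ± 0.13 (SE) from EV and 0.04 ± 0.13 from WT, RPL41 by -0.01 and -0.07, RPS27 by 0.07 and -0.02, and RPL7L1 by -0.23 and -0.14, none of them called. RPLP2 differed by -0.11 from EV and 0.11 from WT, although its partner RPLP1 was higher by 0.33 and 0.31. RPL22L1 was higher by 0.62 and 0.49, with 227, 163 and 299 CPM in untreated MUT against 145, 150.0 and 153 CPM in untreated EV, while RPL22 differed by 0.03 and 0.29, not called. Without untreated MUT replicate 3, RPL22L1 differed by 0.41 from EV, called, and by 0.28 from WT, not called, RPL22 by -0.24 and 0.02, not called, and RPLP1 by 0.20 and 0.19, both called.

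Related lists moved unevenly between the untreated lines. Of the 26 translation factors and other TOP genes, 15 were higher in MUT than in EV and none lower (median 0.27). Of 56 ribosome biogenesis genes, 8 were higher and 6 lower (median 0.03). Of 78 mitochondrial ribosomal proteins, 23 were higher and 1 lower (median 0.21), and of 30 p53 targets none was higher and 14 were lower (median -0.23). Among the 452 other abundant protein-coding genes of at most 1500 bases, 35.8% were higher and 3.54% lower (median 0.19), and the part of transcript length was not tested. MYC did not differ past the threshold (log2 difference -0.17). Without untreated MUT replicate 3, 14 of the 26 TOP genes were higher (median 0.24), 9 of the ribosome biogenesis genes were higher and 6 lower (median 0.00), and 13 of the p53 targets were lower (median -0.23). Without that library 15 of the mitochondrial ribosomal proteins were higher and 4 lower, with a median of 0.07, and 27.0% of the 452 abundant genes were higher and 7.52% lower, with a median of 0.10.

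Untreated WT and untreated EV cells had similar medians of the set. WT against EV gave a median log2 difference of -0.01 and 0 genes called with edgeR, where 11.7% of all tested genes were called in either direction. At an unadjusted p under 0.05 there were 8 of the 83 genes, where 24.0% of all tested genes had such a p, and DESeq2 called 1, where it called 13.7% of all. In a fit to the 2 groups alone 34 genes were called, 13 higher and 21 lower, where 15.0% of all genes tested in that fit were higher and 16.5% lower. RPL13A was among the lower values at -0.24 ± 0.09 (SE), with an edgeR adjusted p of 0.0884.

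Among the treated cells few genes differed between MUT and EV. MUT against EV gave 4 genes higher and none lower (median 0.10), where 6.85% of all tested genes were higher. They were RPS15 (0.49 ± 0.16, SE), RPS23 (0.44 ± 0.10), RPL36 (0.31 ± 0.09) and RPL37 (0.25 ± 0.08). With single libraries left out, 1 gene was higher and none lower without any one of treated EV replicates 2 and 3 and treated MUT replicates 1, 2 and 3, and 7 were higher and 1 lower without treated EV replicate 1. A fit to the 2 groups alone called 10 higher and 1 lower, and DESeq2 called 7 higher and 1 lower, where each called 7.71% of all genes higher. Upper-quartile scaling gave 2, both higher. RPS23 had 989, 874 and 785 CPM in treated MUT and 740.4, 605 and 600.1 CPM in treated EV, without overlap.

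WT against EV gave 16 genes lower and none higher among treated cells (median -0.15), where 9.12% of all tested genes were lower. The largest differences were those of RPL13A (-0.48 ± 0.09, SE), RPLP2 (-0.42 ± 0.11), RPL8 (-0.37 ± 0.08) and RPL26 (-0.36 ± 0.08). With single libraries left out, 16 were lower without treated EV replicate 2 and 15 without treated EV replicate 3, and none higher. Without treated EV replicate 1, 8 were lower and 1 higher. Without treated WT replicates 1, 2 and 3 in turn, 9, 6 and 9 were lower and none higher. Counts without treated EV replicate 1 or any 1 treated WT replicate lie near the 9.12% of all tested genes called lower with all libraries. RPL13A had 413, 414 and 451 CPM in treated WT and 630.1, 596 and 552 CPM in treated EV, without overlap.

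MUT against WT gave 26 genes higher and 2 lower among treated cells (median 0.25), where 10.4% of all tested genes were higher and 9.48% lower. The largest were RPL13A (0.63 ± 0.09, SE), RPS23 (0.60 ± 0.10), RPL11 (0.57 ± 0.11) and RPL7 (0.52 ± 0.18). For RPL7 the edgeR adjusted p was 0.0487, and over the alternatives it reached 0.196. The 2 lower genes were both paralogues, RPL10L (-0.39 ± 0.13, edgeR adjusted p 0.0347) and RPL39L (-0.38 ± 0.11, adjusted p 0.0177). RPL39L had 41.2 to 46.3 CPM in treated MUT and 55.7 to 56.2 CPM in treated WT. Over the alternatives the adjusted p reached 0.114 for RPL10L and 0.0697 for RPL39L. With treated WT replicate 2 or 3 or treated MUT replicate 2 or 3 left out, 0 genes were called lower. The number called was 18 without treated WT replicate 2, and 62 in a fit to the 2 groups alone, where 35.5% of all tested genes were called. These 3 comparisons among treated cells share libraries in pairs.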

How the data were processed

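Total RNA of 18 U2OS libraries was analysed from the authors' deposited table of estimated counts per gene symbol. Per the submitters' processing notes the tools were CASAVA and STAR 2.6.1d and the build hg38, with no roles stated. The counting tool and its handling of strand and of reads with several matches are not given in the sources used here, so a gene and an overlapping antisense gene may not be separable. Of the deposited estimated counts 71.1% were whole within 1e-06. A second deposited table held a normalized signal of 19591 genes, from which only a scaling factor per library was taken as an alternative.

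Counts were rounded and fitted with edgeR 4.0.16 in R 4.3.3 (filterByExpr, 18226 genes, TMM factors, a quasi-likelihood fit with 6 group coefficients over all 18 libraries). The 12 contrasts were adjusted by Benjamini-Hochberg over all tested genes with a threshold of 0.05. An SE is the size of a log2 fold change over the square root of its F value. The common coefficient of variation among libraries of a group was 0.104. CPM refer to TMM-scaled library sizes, with a prior count of 2 on the log2 scale. Labels call the replicates biological triplicates, so p-values rest on the spread between such cultures, estimated jointly over all 6 groups. Untreated MUT scattered more than the other groups, with an SD of the summed CPM of 11207 against at most 1861. The shared estimate may therefore understate the spread in contrasts with untreated MUT. At the totals of 15.4 to 21.9 M counts, members with under 500 counts in a library, such as RPL21 and RPL39, carry visible counting error. The test was run on simulated data first.

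Lengths are medians of basic protein-coding transcripts in GENCODE 44, whose position and strand matched all 84 genes. The members follow the symbol rule, while the genes to be named and the gene lists were chosen with earlier results of these data known. Named members were the 5 largest rises and 5 largest falls past the threshold without overlap of libraries in each contrast, and a fixed set of paralogues, their partners, stalk proteins and MDM2-linked or disease-linked proteins. From each other list up to 2 rises and 2 falls were named, with a fixed set of regulators, and the 5 genes most like RPS27L. Some genes that fall under these rules are not reported here. RPS28 was named for its low level after its values were seen. Alternatives were other scalings (RLE, upper-quartile, the authors' factors, TMM without ribosomal protein genes), no filter, a mean of at least 50 counts, only the groups compared, DESeq2 1.42.0, a replicate block, each library left out, and pseudogene counts added to members, the last chosen after seeing the data.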

Additional observations from a re-analysis of the deposited data

How the results depend on the processing

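The direction of the cytarabine effect over the set held under all alternatives in all 3 lines: the median log2 fold change stayed between -0.42 and -0.27 in EV, -0.51 and -0.41 in WT and -0.72 and -0.53 in MUT, and in untreated MUT it stayed between 0.27 and 0.49 against EV and between 0.29 and 0.51 against WT. Other scalings moved the median of all genes by at most 0.085. Over all genes, the share of calls that were higher was 55.1% for MUT against WT untreated and 65.4% with RLE factors. Of 111 named values, 73 kept direction and call under every alternative and 5 changed sign under at least 1. The number of members called was 42 for the effect in EV under upper-quartile scaling. For the differences in effect it was 16 (MUT against EV) and 1 (MUT against WT) with DESeq2, 1 for MUT against WT with a mean of at least 50 counts, and 1 for WT against EV with only the groups compared. With only the groups compared it was 21 (MUT against EV), 34 (WT against EV) and 26 (MUT against WT) untreated, and 11 (MUT against EV) and 62 (MUT against WT) treated. WT against EV untreated gave 1 with pseudogene counts added and 1 with DESeq2, and MUT against EV treated gave 2 with upper-quartile scaling and 8 with DESeq2. The cause of these changes was not tested.

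With single libraries left out, the number called ran from 0 to 25 for the difference MUT against EV, 0 to 6 for MUT against WT, and, in treated cells, 1 to 8 for MUT against EV, 6 to 16 for WT against EV and 18 to 23 for MUT against WT. RPL39 in EV was -0.0608 with the authors' factors, -0.0165 without the filter, -0.0883 with the replicate block, -0.00079 with DESeq2 and -0.93 to 0.34 with libraries left out. RPL39L in MUT was -0.0354 with RLE factors, -0.0786 with the authors' factors, -0.00061 with TMM factors without ribosomal protein genes, -0.0082 without the filter, -0.0361 with DESeq2 and -0.13 to 0.13 with libraries left out. The difference WT against EV of RPL39L was -0.0147 with upper-quartile scaling, -0.0097 with a mean of at least 50 counts and -0.0595 to 0.10 with libraries left out. With libraries left out, RPL41 in MUT ran from -0.45 to 0.26 and the difference MUT against EV of RPS27L from -0.31 to 0.10.

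Same-numbered libraries showed little tendency to deviate together. Over 45 same-numbered pairs, r of the deviations from group means ran from -0.18 to 0.35 with a median of -0.02, and 7 pairs had r over 0.1. In 1 of 15 pairs of groups every library correlated best with its own number. These values cannot show whether same-numbered cultures were handled together, which the labels do not state. With the replicate block, 2 members were higher and 65 lower in EV, 2 and 70 in WT and 1 and 77 in MUT, and 56 and 61 were higher in untreated MUT than in EV and WT.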
